A study of Mus musculus with 8 samples.

Results

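The genes described here carry, export, take up and store cholesterol in the injured mouse cortex: Apoe, Abca1, Abcg1, Lrp1, Soat1, Plin2, Nr1h3 and Ch25h. They were chosen by symbol and make up 8 of the 21848 genes of the count tables, and all 8 symbols were found. Single-cell RNA-seq had been done on cortical tissue 6 d after photothrombosis (PT), a light-induced clotting of cortical vessels that leaves a small ischemic lesion, from 4 control mice that received saline and 4 mice that received ancrod at 2.4 U per day. Ancrod is a snake venom enzyme that depletes the clotting protein fibrinogen from the blood, and both solutions were delivered by minipumps implanted 2 d before injury, so all 8 mice carried a pump and a PT lesion and no uninjured mouse was included. The labels give the genotype Bl/J6 and female sex for every sample, whereas the study's methods name another substrain and both sexes, so neither point was settled here. The meninges had been removed, myelin had been depleted with beads and red cells had been lysed, and no cell sorting was used, so the cells described are those that survived this preparation.

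Cells lose cholesterol mainly by exporting it to lipoprotein particles, since they cannot break down its ring structure. In the brain Apoe is the main protein of such particles, Abca1 and Abcg1 load them with cholesterol, and Lrp1 takes them up. Cholesterol that is not exported is esterified by Soat1 and kept in lipid droplets coated by Plin2. Nr1h3 encodes LXRα, a nuclear receptor that senses oxysterols and drives transcription of Apoe, Abca1 and Abcg1, and Ch25h makes one such oxysterol, 25-hydroxycholesterol. Phagocytes that clear myelin and dying cells after injury take up large amounts of cholesterol, which is the setting in which these genes are usually studied in brain tissue.

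In the GRCm39 assembly Apoe lies on chromosome 7 at 19430034–19434947, Abca1 on chromosome 4 at 53030787–53159900, Abcg1 on chromosome 17 at 31276649–31336969 and Lrp1 on chromosome 10 at 127374012–127457017. Soat1 lies on chromosome 1 at 156252095–156303864, Plin2 on chromosome 4 at 86565912–86588459, Nr1h3 on chromosome 2 at 91014394–91033417 and Ch25h on chromosome 19 at 34451178–34452564. Abcg1 is the only one of the 8 on the plus strand. The promoter of Abca1 is shown because Abca1 was the member with the smallest p between the groups and Nr1h3 encodes a receptor known to act on it. The stretch holds the 250 bases before the annotated start in RefSeq, chr4:53159896-53160145 of GRCm38.p6 on the minus strand, with a CACGTG hexamer and a repeat of GGTNA separated by 5 bases (N is any base, here on the opposite strand) in capitals.
Abca1 promoter: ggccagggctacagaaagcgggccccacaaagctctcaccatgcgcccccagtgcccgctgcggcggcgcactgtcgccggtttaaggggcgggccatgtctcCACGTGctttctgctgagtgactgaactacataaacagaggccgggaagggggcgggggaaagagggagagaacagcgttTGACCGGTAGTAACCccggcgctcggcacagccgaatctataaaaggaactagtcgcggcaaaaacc
The repeat, an arrangement bound by LXR with its partner RXR, was found in 0.621% of 32851 promoter windows and the hexamer in 6.02%. The search covered both strands of the 250 bases before each start. Among the 7 members with a window, Abca1 was the only one with either motif in these letters. The repeat was looked for because it is known in this promoter, so the match is a description of the sequence and not evidence of binding.

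Over the 8 libraries, 46216 droplets had at least 2000 UMIs (unique molecular identifiers, each counting 1 captured RNA molecule) and under 20% mitochondrial UMIs, 5080–6277 per mouse. Total UMIs per library ran from 97861434 to 142139441 and were higher in every ancrod library than in every control library. Clusters were named from marker genes, with the 8 members and 72 other genes of their pathways left out of the clustering, and the names below (microglia, infiltrating macrophage and so on) each stand for cells that are like that type. After removal of 2144 doublets, 16 classes were named, 14 of them with enough cells to describe, and 9.60% of the remaining droplets stayed unnamed. The unnamed clusters held 4.24% of the Apoe UMIs and between 1.62% and 8.88% of those of the other members. Microglia were the largest class with 17219 cells, followed by endothelial cells (7084), astrocytes (4224), infiltrating macrophages (2721) and fibroblasts (2268). In 274 cases a cell barcode occurred in more than 1 library.

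Apoe was highest in infiltrating macrophages. Levels across classes are given as CPM, counts per 1000000 UMIs of that class and mouse. In infiltrating macrophages, named from Arg1, Ms4a7, Gpnmb and related markers, Apoe ranged from 52957 to 70240 CPM over the 8 mice with a median of 62644, a mean of 6.24% of all their UMIs. This was 2.53 times the level in border-associated macrophages, the class with the next highest level, and it was higher in 8 of 8 mice. Border-associated macrophages (24615 ± 3482 CPM, SD, n = 8) and microglia (23252 ± 2725 CPM) did not differ beyond the spread between mice, with the former higher in 4 of 8 mice. Astrocytes followed with 16849 ± 3095 CPM, below microglia in 7 of 8 mice, and monocytes with 8525 ± 2048 CPM, below astrocytes in 8 of 8. OPCs (oligodendrocyte precursors) came next with 2286 ± 1301 CPM, and dendritic cells were lowest with 492 ± 264 CPM.

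Microglia held 38.0 ± 7.06% of all UMIs of kept droplets. Because they were so numerous, they supplied 47.4 ± 10.2% of the Apoe UMIs of kept droplets per mouse, unnamed clusters included. Infiltrating macrophages supplied 35.1 ± 6.16%, although they held only 10.5 ± 1.82% of all UMIs. Free Apoe RNA was also abundant. Droplets with at most 100 UMIs, which hold no cell, had 25151 ± 4013 CPM of Apoe, and infiltrating macrophages were the only class with a higher mean. When each cell was thinned to 2000 UMIs, 51.8% of T or NK cells and 70.0% of erythrocytes, which should not express Apoe, still had an Apoe UMI, beside 95.5% of microglia and 98.4% of astrocytes. The unthinned shares were 92.4% of T or NK cells (median 8472 UMIs per cell) and 99.5% of microglia (median 15430 UMIs). Low Apoe levels, from OPCs (2286 CPM) down to dendritic cells (492 CPM), with T or NK cells at 726 CPM, are therefore not read as expression. Astrocytes (16849 CPM) are not among these classes, and the part of free RNA in each class was not tested.

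The efflux transporters followed partly different orders. Abca1 was highest in border-associated macrophages (1244 ± 128 CPM, range 1073–1425), above infiltrating macrophages (994 ± 94.9 CPM) in 8 of 8 mice. Microglia came next with 889 ± 45.5 CPM and then astrocytes with 618 ± 80.2 CPM, the latter below microglia in 8 of 8 mice. Neutrophils and monocytes (443 and 418 CPM) could not be ordered, nor could fibroblasts and endothelial cells (286 and 249 CPM, with fibroblasts higher in 6 of 8 mice). Abcg1 was highest in infiltrating macrophages (247 ± 19.6 CPM), above border-associated macrophages in 8 of 8 mice. Its levels in border-associated macrophages, microglia and monocytes were 195 ± 24.6, 194 ± 5.63 and 192 ± 15.3 CPM and did not differ beyond the spread. Astrocytes, in contrast to their Abca1, were lowest of the 14 classes for Abcg1 with 2.35 ± 1.08 CPM, and 0.545% of astrocytes had an Abcg1 UMI after thinning against 28.2% of microglia (2.51% and 77.8% before thinning).

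**Figure D1:**
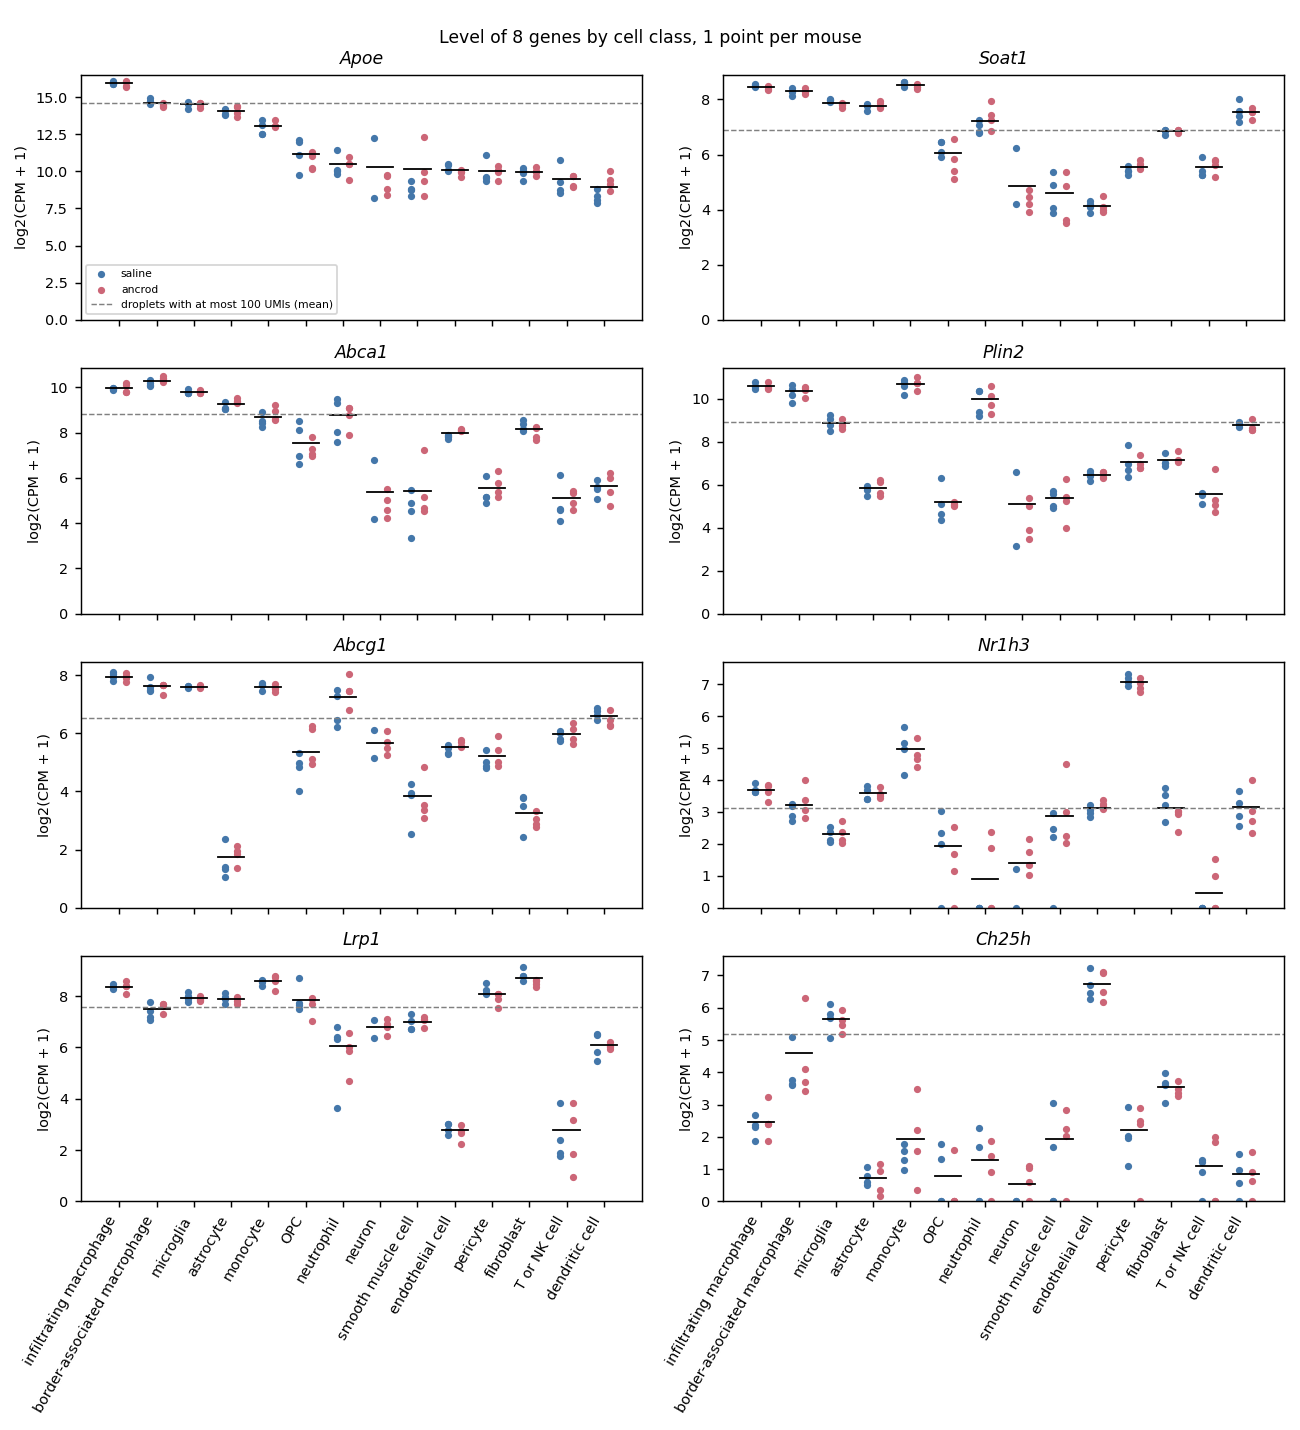
Levels of the 8 genes in 14 cell classes (each class stands for cells like that type), as log2(CPM + 1) on the vertical axis, with one point per mouse, a black line at the mean over mice and a dashed line at the mean of droplets with at most 100 UMIs. The mean of Apoe lies above the dashed line in infiltrating macrophages alone, Nr1h3 is highest in pericytes and Ch25h in endothelial cells.

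Lrp1, the uptake receptor, was highest in fibroblasts (411 ± 74.1 CPM, range 322–565) and monocytes (379 ± 50.1 CPM), which did not differ beyond the spread, with fibroblasts higher in 4 of 8 mice. Infiltrating macrophages (330 ± 33.7 CPM), pericytes (271 ± 49.4 CPM), microglia (242 ± 23.0 CPM) and astrocytes (236 ± 23.9 CPM) followed. Endothelial cells were lowest with 5.88 ± 1.19 CPM, a level not separable from that in T or NK cells (5.92 ± 4.98 CPM). Both were far under the 188 ± 34.9 CPM of empty droplets, and Lrp1 UMIs in endothelial cells are not read as expression.

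The storage genes were highest in monocytes and macrophages. Soat1 reached 366 ± 24.9 CPM in monocytes and 352 ± 18.6 CPM in infiltrating macrophages, in an order kept in 6 of 8 mice. Border-associated macrophages had 312 ± 21.5 CPM, above microglia (236 ± 16.9 CPM) in 8 of 8 mice, while microglia and astrocytes (218 ± 15.8 CPM) were not separated. Plin2 reached 1651 ± 301 CPM in monocytes, 1559 ± 146 CPM in infiltrating macrophages, 1309 ± 246 CPM in border-associated macrophages and 1013 ± 374 CPM in neutrophils. Microglia, at 466 ± 85.3 CPM, were below neutrophils in 8 of 8 mice and near the 492 ± 145 CPM of empty droplets. Infiltrating macrophages and microglia supplied like shares of the Plin2 UMIs of kept droplets, 34.2 ± 5.18% and 36.9 ± 8.44%. Their shares of all UMIs were 10.5 ± 1.82% and 38.0 ± 7.06%.

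Nr1h3 and Ch25h had their highest levels outside the phagocytes. Nr1h3 ranged from its low levels in most classes to 132 ± 16.8 CPM in pericytes, 4.39 times the level in monocytes (30.1 ± 10.5 CPM) and 17.0 times that of empty droplets, and pericytes were above monocytes in 8 of 8 mice. After thinning, 24.5% of pericytes had an Nr1h3 UMI, beside 0 of 713 T or NK cells (50.7% and 0.42% before thinning, at medians of 5417 and 8472 UMIs per cell). The latter count allows a share with a UMI at this depth of up to 0.421% by counting error alone. It sets no limit on the share of cells that hold the RNA. Infiltrating macrophages (11.9 ± 1.56 CPM) and astrocytes (10.98 ± 1.45 CPM) were not separated, and microglia had 3.95 ± 0.89 CPM, under the 7.77 ± 1.6 CPM of empty droplets. Ch25h was highest in endothelial cells (106 ± 30.9 CPM, range 71.0–150), 2.15 times the level in microglia (49.2 ± 12.2 CPM) and above it in 8 of 8 mice. No other class was above the 35.3 ± 9.10 CPM of empty droplets. By their numbers microglia still held 46.8 ± 10.2% of the Ch25h UMIs of kept droplets, beside 38.0 ± 7.06% of all UMIs. After thinning, 9.78% of endothelial cells, 5.20% of microglia and 0.140% of T or NK cells had a Ch25h UMI (30.9%, 21.2% and 0.70% before thinning).

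Across the means of the 14 classes, the genes whose log2 levels were most like those of a member were mostly not its pathway partners. Of 13425 genes with at least 10 CPM in 1 class, Apoc1 (another apolipoprotein), Tmem82 and Ctsb (a lysosomal protease) were closest to Apoe with Pearson's r of 0.97, 0.92 and 0.89. The closest genes were Hacd4, Tom1 and Hmox1 for Abca1, Rnf111, Cbl and Hps3 for Abcg1, and Pid1, Arhgef10l and Asph for Lrp1. For Soat1 they were Gnpda1, Uap1l1 and Rab7b, for Plin2 Ftl1, Amdhd2 and Sdcbp, for Nr1h3 Hax1, Atf6b and Fbxo4, and for Ch25h Slco2b1, Slc31a1 and Cracr2b. Among the members, r was highest between Apoe and Abca1 (0.83), Soat1 and Plin2 (0.79) and Abcg1 and Plin2 (0.73). These values describe 14 points that share mice and free RNA and differ in depth.

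Within microglia, the members were spread very unequally over 12 clusters. In cluster 1, led by P3h2 and Csmd3, Apoe was 6666 CPM, whereas in cluster 11, led by Ppfia4, Crybb1 and Ltc4s, it was 36328 CPM, 5.45 times as high. Plin2 went from 97.6 CPM in cluster 1 to 1141 CPM in cluster 29, led by the cell division genes Mki67 and Top2a. Ch25h was between 4.46 CPM in cluster 1 and 116 CPM in cluster 2, led by Cd5l, Igf1 and Rcan1. Cluster 1 was also lowest for Abca1 (689 CPM) and Abcg1 (132 CPM), and cluster 2 was highest for both (1162 and 251 CPM). Soat1 varied least, from 204 to 287 CPM. Neither members nor pathway genes entered the clustering, but other leading genes of these clusters, such as Apoc4 and Spp1 in cluster 2, were not left out. The lowest and highest clusters were picked from the 12 by these same levels. The part of the clustering in these differences was not tested.

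Over the 12 clusters the log2 level of Plin2 went opposite to the summed level of 6 homeostatic microglia genes (P2ry12, Tmem119, Siglech, Sall1, P2ry13 and Selplg), with Pearson's r = -0.94. The values were -0.91 for Ch25h, -0.71 for Apoe, -0.71 for Abca1 and -0.71 for Abcg1, and Soat1 went the other way with 0.65. Against injury-responsive genes (Cst7, Itgax, Clec7a, Gpr84, Igf1 and Spp1) r was 0.94 for Plin2, 0.87 for Ch25h, 0.70 for Abcg1 and 0.63 for Apoe. It was 0.57 for Abca1, 0.56 for Lrp1, -0.02 for Nr1h3 and -0.57 for Soat1. The clusters share mice and free RNA but differ in depth, and 5 of the homeostatic genes are also microglia markers. Median UMIs per cell were 11239.5, 10567.5 and 10995 in clusters 1, 14 and 27, which had the most homeostatic RNA. They were 28211 and 37182 in clusters 2 and 29, which had the most injury-responsive RNA. The part of depth in these correlations was not tested.

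**Figure D2:**
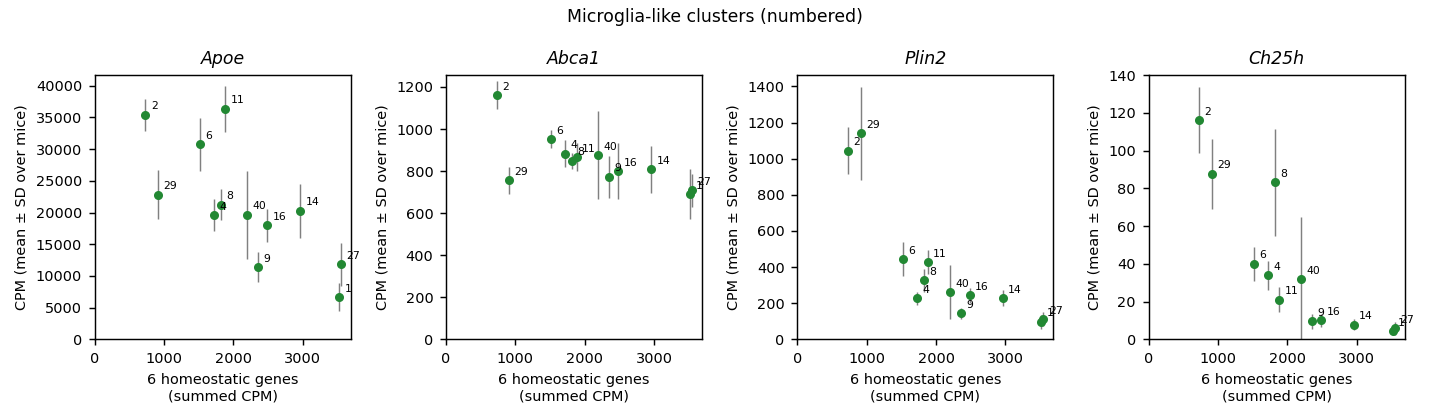
Levels of Apoe, Abca1, Plin2 and Ch25h (CPM, mean ± SD over mice, vertical axis) in 12 numbered microglia clusters against the summed CPM of 6 homeostatic genes (horizontal axis). Plin2 and Ch25h are lowest in the clusters with the most homeostatic RNA, with cluster 1 at 97.6 CPM of Plin2, and Apoe peaks in cluster 11.

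Infiltrating macrophages fell into cluster 0, led by Gpnmb, Lyz2 and Ms4a7 (2365 cells), and cluster 34, led by dividing cell genes (356 cells). Apoe was 72278 CPM in the former and 14466 CPM in the latter, and Abca1 was 1109 and 432 CPM. Among astrocytes Apoe ranged from 3774 CPM in cluster 31, led by Gpc5 and Npas3, to 25391 CPM in cluster 20, led by Cldn10 and Ntsr2. Fibroblast cluster 18, led by Dcn and Lum, held the highest levels of the 4 fibroblast clusters with at least 100 cells for Lrp1 (559 CPM), Nr1h3 (17.0 CPM) and Abcg1 (17.8 CPM). In the 5 endothelial clusters of that size Ch25h ranged from 24.3 CPM in cluster 10, led by Cxcl12 and Ly6c1, to 201 CPM in cluster 17, led by Il1r1 and Ackr1, the latter known from venous endothelium.

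The comparison of ancrod with saline asked whether depleting fibrinogen changed these genes after PT. No member passed the test in any of 7 comparisons, and the 2 groups mostly overlapped. Summed UMIs of each mouse and class entered edgeR's quasi-likelihood fit, and p-values were adjusted over all genes of that fit by Benjamini and Hochberg's procedure. In this part of the results, levels of control and ancrod mice over a whole class or all kept droplets are CPM scaled by TMM, unless stated otherwise. Levels and means within single clusters, summed marker levels, means over all 8 mice and levels of empty droplets are CPM without TMM. Of the 8 members, 0 were called over all kept droplets (0.0185% of all genes tested), 0 in microglia (0%), 0 in infiltrating macrophages (0%), 0 in border-associated macrophages (0.0328%), 0 in fibroblasts (0.00784%) and 0 in endothelial cells (0%). In astrocytes 0 of the 7 members that could be fitted were called (0%), Ch25h having too few UMIs. At an unadjusted p under 0.05 edgeR had 4 members in fibroblasts (beside 13.6% of all genes), 1 each in border-associated macrophages (6.34%), astrocytes (3.35%) and endothelial cells (7.65%), and 0 over all kept droplets (17.3%), in microglia (4.28%) and in infiltrating macrophages (3.23%). DESeq2 called 1 member, Abca1 in endothelial cells, beside 12 of 12686 genes there, and 0 members elsewhere. Over all genes edgeR called 0 to 3 per comparison and DESeq2 0 to 821, with 821 of 16186 genes over all kept droplets and 174 of 12747 in fibroblasts. Batch 1 held mice 1–3 of each group and batch 2 held mouse 4 of each group, too few for a value of its own, so only batch 1 alone is given beside the pooled values.

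**Figure D3:**
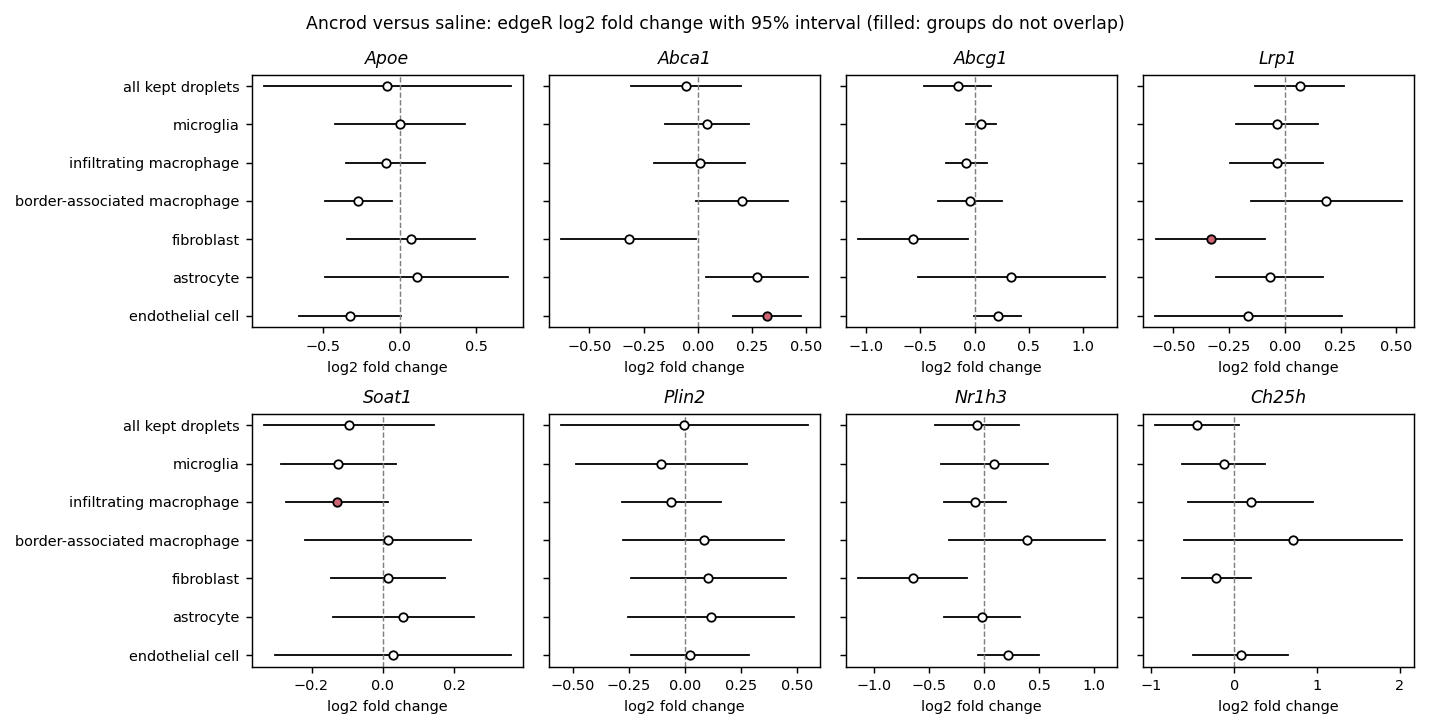
Log2 fold change of ancrod over saline by edgeR with its 95% interval (horizontal axis) for the 8 genes in 7 comparisons. A filled point marks a gene whose 4 ancrod values (CPM scaled by TMM) lie all above or all below the 4 saline values, which was the case for Abca1 in endothelial cells, Lrp1 in fibroblasts and Soat1 in infiltrating macrophages.

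Apoe in microglia did not differ detectably between the groups. Control mice had 17682, 24018, 25744 and 25692 CPM and ancrod mice 26083, 22452, 24696 and 20041 CPM, with overlapping groups and the lowest value in a control mouse. The log2 fold change was 0.00 (SE 0.19, 95% interval -0.42 to 0.43, adjusted p = 0.998) and 0.12 in batch 1 alone. Cluster 1, the lowest in Apoe, made up 18.6 ± 6.62% of microglia in control mice and 9.02 ± 5.13% in ancrod mice, with overlapping groups. Within the 12 clusters the ancrod mean was lower in 8 for Apoe, in 11 for Soat1, in 10 each for Ch25h and Lrp1 and in 9 for Plin2. It was lower in 6 each for Abca1 and Abcg1 and in 4 for Nr1h3. The part of the make-up in the pooled values was not tested. In infiltrating macrophages Apoe was 64510 ± 4264 CPM in control mice and 60526 ± 9067 CPM in ancrod mice, a log2 fold change of -0.09 (SE 0.12, interval -0.35 to 0.17). The effect of ancrod on Apoe did not differ detectably between the 2 classes, with a difference of -0.10 (SE 0.23, interval -0.61 to 0.41, adjusted p = 0.967). For the other members that difference was between -0.14 and 0.35, none was called by edgeR out of 12874 genes tested (0%), and 678 of all genes had an unadjusted p under 0.05.

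Apoe in border-associated macrophages was lower on average with ancrod. Control mice had 30962, 27447, 24043 and 25950 CPM and ancrod mice 22372, 24653, 22326 and 20473 CPM. Only the ancrod mouse with 24653 CPM was above the lowest control mouse. The log2 fold change was -0.27 (SE 0.10, adjusted p = 0.683, batch 1 alone -0.25), on 44–110 cells per mouse. The summed level of 5 ependymal markers in these cells was 5.14–6.69 CPM in control mice and 7.00–11.1 CPM in ancrod mice, with none at 0. That of 6 astrocyte markers was 15.4–49.7 CPM in control mice and 49.0–230 CPM in ancrod mice, with none at 0, and the part of either in the Apoe and Abca1 values of these cells was not tested. Abca1 in the same cells was 1165 ± 86.6 CPM in control mice and 1340 ± 87.4 CPM in ancrod mice (log2 fold change 0.20, SE 0.10, adjusted p = 0.777), with overlapping groups.

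Abca1 in endothelial cells had the smallest p of the members, at a level (249 CPM over all 8 mice) under the 452 CPM of empty droplets. T or NK cells had 33.1 CPM, and the part of free RNA in the endothelial level was not tested. Control mice had 217, 236, 232 and 205 CPM and ancrod mice 285, 285, 278 and 261 CPM. Every ancrod mouse was above every control mouse, as was the case for 1 of 8 members and, in one or the other direction, for 3.73% of all genes in this class. The log2 fold change was 0.32 (SE 0.07, 95% interval 0.16 to 0.47), with an adjusted p of 0.633 by edgeR and 0.040 by DESeq2, and it was 0.31 in batch 1 alone (adjusted p = 0.970). In each of the 5 endothelial clusters with at least 100 cells the ancrod mean was the higher one, and in 2 of them, clusters 7 and 10, the groups did not overlap. The share of all genes without overlap within a cluster was not computed. As parts of the same pooled cells of the same mice, the clusters are not further support. In cluster 7 Abca1 was 176 ± 15.8 CPM in control mice and 248 ± 19.0 CPM in ancrod mice.

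The make-up of the endothelial cells moved with this difference. Control mice had 1036–1312 endothelial cells and ancrod mice 390–824. Cluster 10, where Abca1 was lowest (141 CPM), made up 26.3 ± 2.79% of them in control mice and 16.9 ± 6.26% in ancrod mice, while cluster 17 made up 13.9 ± 2.61% and 20.9 ± 5.64%. Cluster 30, where Abca1 was highest (318 CPM), made up 5.31 ± 1.79% and 9.18 ± 3.15%. Median depth was 5445.5 UMIs per cell in cluster 10, 29710 in cluster 17 and 21960.5 in cluster 30. Endothelial cells of every ancrod mouse also held more UMIs per cell on average than those of every control mouse. The part of make-up and depth in the Abca1 values was not tested. The summed level of 8 microglia markers in endothelial cells was lower in every ancrod mouse, 156–183 CPM against 185–202 CPM in control mice, with none of the 8 markers at 0. Their part in the Abca1 result was not tested. Other endothelial members overlapped between the groups, with Abcg1 at 42.2 ± 4.63 and 48.9 ± 4.46 CPM (log2 fold change 0.21, SE 0.10, adjusted p = 0.633). Apoe was 1213 ± 211 and 969 ± 143 CPM (-0.32, SE 0.15, adjusted p = 0.633), far under the 25151 CPM of empty droplets, and is not read as expression.

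**Figure D4:**
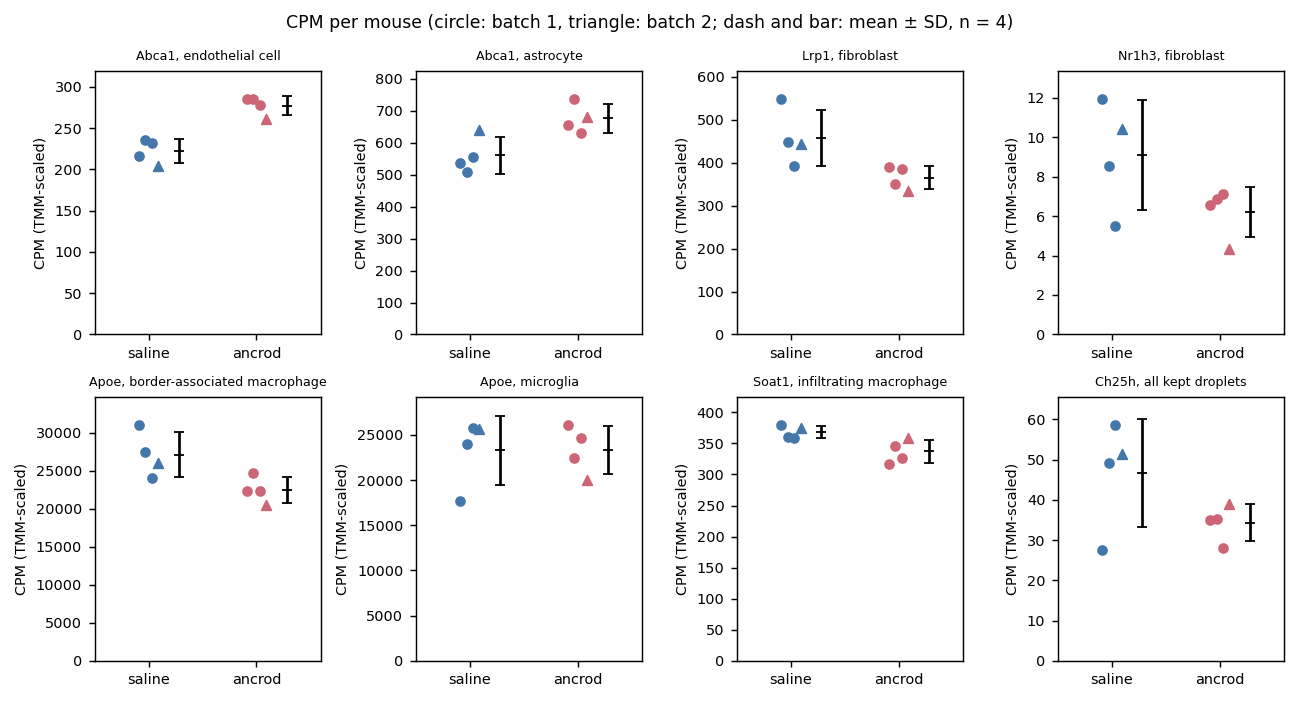
Levels per mouse (CPM scaled by TMM, vertical axis) of 8 gene and class pairs in saline and ancrod mice, with circles for batch 1 and triangles for batch 2. The 4 ancrod mice lie above the 4 control mice for Abca1 in endothelial cells and below them for Lrp1 in fibroblasts and Soat1 in infiltrating macrophages, and the groups overlap in the other 5 panels.

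In astrocytes Abca1 was 536, 509, 556 and 642 CPM in control mice and 655, 738, 631 and 682 CPM in ancrod mice. The groups overlapped by a single pair, the control mouse with 642 CPM and the ancrod mouse with 631 CPM. The log2 fold change of Abca1 was 0.27 (SE 0.11, adjusted p = 0.999, batch 1 alone 0.34), and the ancrod mean was higher in each of 6 astrocyte clusters. Apoe in astrocytes was 16294 ± 2620 CPM in control mice and 17602 ± 4539 CPM in ancrod mice, a log2 fold change of 0.11 (SE 0.27).

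In fibroblasts, cells that form the scar of the lesion, 4 members had lower values with ancrod at an unadjusted p under 0.05, beside 13.6% of all genes in either direction. Lrp1 was 548, 448, 392 and 443 CPM in control mice and 390, 349, 384 and 334 CPM in ancrod mice, so that the highest ancrod value lay under the lowest control value on the TMM scale. Without TMM the groups overlapped, with 384–565 CPM in control mice and 322–396 CPM in ancrod mice. Of the 8 members 1 did not overlap after TMM, beside 7.14% of all genes in fibroblasts. The log2 fold change of Lrp1 was -0.33 (SE 0.11, 95% interval -0.58 to -0.09, adjusted p = 0.280), -0.32 in batch 1 alone, and -0.39 without the third control mouse, which had only 41 fibroblasts against 122–648 in the others.

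Nr1h3 was 11.9, 8.51, 5.47 and 10.4 CPM in control and 6.58, 6.87, 7.1 and 4.35 CPM in ancrod fibroblasts. The third control mouse was the one among the ancrod values, and the log2 fold change was -0.65 (SE 0.22, adjusted p = 0.287, batch 1 alone -0.46). Abcg1 was 10.0 ± 3.90 and 7.15 ± 1.35 CPM (log2 fold change -0.57, SE 0.23, adjusted p = 0.337, batch 1 alone -0.57) and Abca1 317 ± 40.2 and 254 ± 46.1 CPM (-0.32, SE 0.14, adjusted p = 0.359, batch 1 alone -0.21). None of these 4 was called by either tool. Over all 8 mice the fibroblast levels of Abca1 (286 CPM), Abcg1 (8.59 CPM) and Nr1h3 (7.67 CPM) were at or below those of empty droplets (452, 90.6 and 7.77 CPM), whereas Lrp1 was above. T or NK cells had 33.1 CPM of Abca1, 61.4 CPM of Abcg1 and 0.36 CPM of Nr1h3. The part of free RNA in the fibroblast levels was not tested.

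Cluster 18, the fibroblast cluster highest in Lrp1, Nr1h3 and Abcg1, made up 48.2 ± 12.5% of fibroblasts in control mice and 36.0 ± 9.68% in ancrod mice. Within that cluster Lrp1 was 597 ± 43.0 and 522 ± 40.4 CPM and Nr1h3 17.7 ± 2.16 and 16.2 ± 4.04 CPM. The Lrp1 mean was lower with ancrod in each of the 4 clusters with at least 100 cells, though cluster 33 held enough cells in only 2 control mice. The groups did not overlap in cluster 36, where the third control mouse had only 6 cells and was left out. The other control mice had 14, 13 and 24 cells there. The ancrod mean of Abca1 was also lower in 4 of 4 clusters, with no overlap in 1 of them. For fibroblast clusters, too, the share of all genes without overlap was not computed, and the clusters are parts of the same mice. For Nr1h3 the mean was lower in 3 of 4 clusters and for Abcg1 in 2 of 4. The summed level of 6 monocyte markers in fibroblasts was 55.3–113 CPM in control mice and 28–53.1 CPM in ancrod mice, with none at 0, and its part in these values was not tested.

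**Figure D5:**
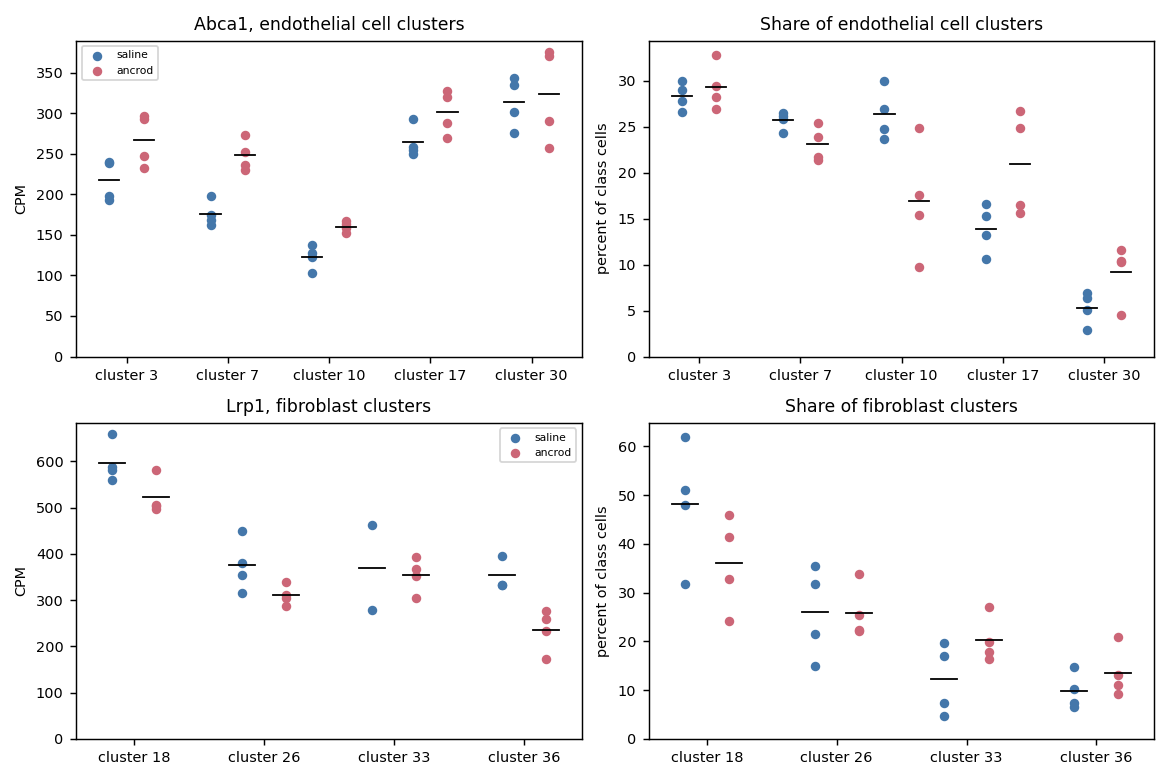
Levels per mouse (CPM, vertical axis) of Abca1 in 5 endothelial clusters and of Lrp1 in 4 fibroblast clusters with at least 100 cells, with the share of the class that each cluster makes up in saline and in ancrod mice. The ancrod mean of Abca1 is higher in 5 of 5 clusters and that of Lrp1 lower in 4 of 4.

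Among the storage genes, Soat1 in infiltrating macrophages was 379, 361, 359 and 375 CPM in control mice and 317, 347, 327 and 359 CPM in ancrod mice. On the TMM scale the groups did not overlap, by less than 1 CPM, as for 1 of 8 members and 1.93% of all genes in this class. Without TMM they overlapped, with 353–379 CPM in control mice and 324–358 CPM in ancrod mice. The change was small, with a log2 fold change of -0.13 (SE 0.07, interval -0.27 to 0.02, adjusted p = 0.999) and -0.15 in batch 1 alone. The summed level of 6 neuron markers in these cells was 0.91–1.47 CPM in control mice and 1.85–9.27 CPM in ancrod mice, with none at 0, and its part in the Soat1 value was not tested. In microglia Soat1 was 246 ± 15.4 CPM in control mice and 225 ± 12.2 CPM in ancrod mice, with overlapping groups on the TMM scale. Its log2 fold change there was -0.12 (SE 0.07, adjusted p = 0.933 by edgeR). Plin2 did not differ detectably in any comparison, with log2 fold changes between -0.11 in microglia and 0.12 in astrocytes.

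Over the whole suspension Ch25h was 27.6, 49.3, 58.6 and 51.5 CPM in control mice and 34.9, 35.2, 27.98 and 39.0 CPM in ancrod mice. The first control mouse was below every ancrod mouse and the other 3 were above all of them. The log2 fold change was -0.45 (SE 0.22, interval -0.95 to 0.06, adjusted p = 0.331, batch 1 alone -0.47). In a sum over all droplets, fewer cells of a type and less RNA per cell cannot be told apart. In endothelial cells, its main source per cell, Ch25h was 103 ± 32.4 and 109 ± 35.7 CPM, and in microglia 51.5 ± 16.5 and 47.2 ± 10.3 CPM. Endothelial cells numbered 1036–1312 in control mice and 390–824 in ancrod mice, and the part of their number in the sum was not tested. The other 7 members differed over the whole suspension by log2 values between -0.16 and 0.07.

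The 72 other genes of these pathways were read in the same fits, and edgeR called 0 of them in any comparison. DESeq2 called 2 over all kept droplets, 7 in fibroblasts and 0 elsewhere, beside 821 of 16186 and 174 of 12747 genes in the first pair. Sterol synthesis, the pathway that makes cholesterol anew and is turned down when cells hold enough of it, had a median further from 0 in fibroblasts and astrocytes than in the other 5 comparisons. In fibroblasts 21 of its 23 genes had a log2 fold change above 0, with a median of 0.61 and 14 at an unadjusted p under 0.05, beside a median of -0.0039 and 13.6% over all genes. In astrocytes 21 of 23 were below 0, with a median of -0.45 and 10 at an unadjusted p under 0.05, beside a median of -0.00079 and 3.35% over all genes. The 6 genes of lipoproteins and carriers in the fibroblast fit had a median of -0.62, with 2 at an unadjusted p under 0.05. The difference between fibroblasts and astrocytes in the sterol synthesis list was not tested. Elsewhere the sterol synthesis list was below 0 in 18 of 23 genes over all kept droplets, 17 of 22 in microglia and 16 of 23 in endothelial cells, and was divided at 11 above and 11 below in infiltrating macrophages and 10 above and 7 below in border-associated macrophages. The lower monocyte marker sums and the smaller share of cluster 18 given above for ancrod fibroblasts moved with the fibroblast values of the list, and their part in them was not tested. Among astrocytes cluster 13, with the lowest median depth (3711 UMIs per cell), made up 27.4 ± 6.83% in control mice and 37.7 ± 5.82% in ancrod mice, while clusters 20 and 31 went from 23.0% to 18.1% and from 12.97% to 9.04%, and the part of this in the astrocyte values was not tested.

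Hmgcs1, which makes the first committed precursor of the pathway, was 27.9, 31.8, 35.3 and 40.3 CPM in control fibroblasts and 62.9, 74.1, 45.5 and 71.6 CPM in ancrod fibroblasts. All ancrod mice were above all control mice, and the log2 fold change was 0.90 (SE 0.17) with an adjusted p of 0.204 by edgeR and 0.0011 by DESeq2. Srebf2, a transcription factor that controls the pathway, had a log2 fold change of 0.77 with the same adjusted p of 0.204, and its groups did not overlap either. Both genes were named for a small p in this same fit, so the lack of overlap adds no further support. Of all genes in fibroblasts, 7.14% did not overlap between the groups. In astrocytes the 3 pathway genes with the smallest p were G0s2, an inhibitor of fat breakdown (-0.51), Fdps (-0.72) and Fdft1 (-0.64), each with an adjusted p of 0.999. Fdft1, a synthesis enzyme, was 99.6, 85.2, 66.3 and 58.8 CPM in control and 35.5, 44.9, 55.9 and 65.6 CPM in ancrod astrocytes, which overlap.

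In the other comparisons the pathway genes named for having the smallest p were not called by edgeR either. Over all kept droplets they were Lpcat3, which remodels phospholipids (-0.25), the oxysterol receptor gene Gpr183 (-0.50) and Lipe, a lipase (-0.31), all as log2 fold changes. DESeq2 called Lpcat3 and Gpr183 over all kept droplets, beside 821 of 16186 genes. They included Gpr183 (-0.29) and Fdft1 (-0.28) in microglia, and Dgat1, which makes triglycerides (0.21), the lipid carrier gene Apod (1.14) and Lipe (0.27) in infiltrating macrophages. In border-associated macrophages they were Nceh1, which splits cholesterol esters (0.42), Dhcr7, an enzyme of late sterol synthesis (-0.91) and the lipid droplet gene Hilpda (0.64), and in endothelial cells they included Srebf2 (-0.28) and Gpr183 (-1.09). For the difference in effect between infiltrating macrophages and microglia they included Dgat1 (0.35) and Hilpda (0.50), each with an adjusted p of 0.893.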

How the data were processed

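Single-cell RNA-seq libraries of 8 mice were analysed. The deposited values are UMI counts per gene and droplet for all droplets, made by the authors with Cell Ranger 7.1.0 on GRCm39. Droplets with at least 2000 UMIs and under 20% mitochondrial UMIs were kept. Doublets were called with Scrublet in scanpy 1.11.5, taking the droplets with the highest scores at 0.8% per 1000 droplets, and removed. Cells were clustered on 3000 variable genes without the 80 pathway genes (20 components, 20 neighbours, Leiden resolution 2). Clusters were named from marker lists. Clusters with mixed or too few markers, or with low depth and no own marker among their leading genes, were left unnamed. These limits were set after the clusters were seen. The low-depth rule left out cluster 5 (1941 cells) and cluster 21 (749 cells), whose best class was microglia. Gene positions come from the GENCODE annotation of GRCm39. Shares of cells with a UMI were computed after thinning each cell to 2000 UMIs and cover counting error only.

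Counts were summed per mouse and class (at least 10 cells) and tested with edgeR 4.0.16 (quasi-likelihood test, filterByExpr, TMM, Benjamini-Hochberg, threshold 0.05), with DESeq2 1.42.0 as an alternative, in R 4.3.3. Scripts were tested on simulated counts with 200 changed genes. The members, pathway lists and markers were chosen with earlier results of these data known. Named genes were the 8 members everywhere, in each comparison the pathway genes past the threshold or else the 3 with the smallest p (some of which are not reported here), and for each member the 3 genes with the most similar class levels. A difference in effect between infiltrating macrophages and microglia was tested in a fit with mouse as a block. Alternatives were no filter, no TMM, doublets kept, at least 5000 UMIs, batch as a covariate, batch 1 alone, replicate blocks, each mouse left out, Leiden resolution 1 and, added after seeing the data, the earlier edgeR dispersion method. Total UMIs were 97861434–142139441 per library, and counts of a few UMIs per mouse limit Nr1h3 and Ch25h most. Each library came from 1 animal per the labels, which also give its group.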

Additional observations from a re-analysis of the deposited data

Results flagged for a closer look

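Of 110 groups of 4 mice examined, 4 had a mouse set apart from the other 3 by more than Dixon's limit, about the number that chance gives (5%). Ch25h in border-associated macrophages was 33.7 CPM in the fourth control mouse (11.1–12.8 in the others) and 79.5 CPM in the fourth ancrod mouse (9.80–16.5 in the others). Both are batch 2 mice, and in batch 1 alone the log2 fold change of Ch25h in these cells was 0.17 against 0.71 over all mice. It was -0.45 with only the fourth ancrod mouse left out, so its size and sign depended on which batch 2 mice were kept. Abcg1 in the same class was 162 CPM in the fourth ancrod mouse, below the 204–206 CPM of the other 3. Soat1 in endothelial cells was 21.5 CPM in the fourth ancrod mouse, above the 14.7–15.8 CPM of the others. The part of batch in these values was not tested.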

How the results depend on the processing

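The 63 log2 fold changes were recomputed under the alternatives, which gave 1062 values. In 1 case a value passed the threshold, Abca1 in endothelial cells with DESeq2 (0.31, adjusted p = 0.040), so that DESeq2 called 1 member there and edgeR 0. The sign changed in 89 cases, spread over 33 values, and the cause was not tested. Abca1 in endothelial cells and astrocytes, Lrp1, Nr1h3, Abcg1 and Abca1 in fibroblasts, Apoe in border-associated macrophages and Soat1 in infiltrating macrophages kept their sign under each alternative run, the first from 0.22 (doublets kept) to 0.35 and Lrp1 from -0.39 to -0.23. Given with its value under the alternative, the sign changed in batch 1 alone for Plin2 0.034 and Nr1h3 0.0069 over all kept droplets, Lrp1 0.027 in microglia, Abca1 -0.071, Nr1h3 0.0051 and Ch25h -0.025 in infiltrating macrophages, Abcg1 0.16 in border-associated macrophages, Soat1 -0.0082 in fibroblasts, Apoe -0.081 and Nr1h3 0.083 in astrocytes and Soat1 -0.21 in endothelial cells. Without TMM it changed for Plin2 0.033 over all kept droplets, Apoe -0.035 in microglia, Lrp1 0.000511 in infiltrating macrophages and Abca1 0.027 for the difference between infiltrating macrophages and microglia. With doublets kept it changed for Abcg1 -0.30 and Plin2 -0.086 in astrocytes and Soat1 -0.15 and Plin2 -0.064 in endothelial cells. It also changed for Apoe -0.000139 in microglia at 5000 UMIs or more, for Apoe -0.000117 in microglia with batch as a covariate, for Ch25h -0.055 in infiltrating macrophages at Leiden resolution 1 and for Plin2 -0.00285 in endothelial cells without the filter. Leaving out each mouse in turn changed the sign of 31 values. Over all kept droplets the ranges were Abca1 -0.12 to 0.021, Plin2 -0.18 to 0.14 and Nr1h3 -0.18 to 0.051. In microglia they were Apoe -0.11 to 0.067, Lrp1 -0.088 to 0.033, Plin2 -0.24 to 0.036, Nr1h3 -0.14 to 0.25 and Ch25h -0.31 to 0.067. In infiltrating macrophages the ranges were Abca1 -0.051 to 0.066, Lrp1 -0.098 to 0.044, Plin2 -0.14 to 0.011, Nr1h3 -0.14 to 0.0074 and Ch25h -0.19 to 0.42. In border-associated macrophages they were Abcg1 -0.10 to 0.081, Soat1 -0.040 to 0.067, Plin2 -0.048 to 0.22 and Ch25h -0.45 to 1.31. In fibroblasts the ranges were Apoe -0.061 to 0.22, Soat1 -0.013 to 0.044 and Plin2 -0.00114 to 0.27. In astrocytes they were Apoe -0.012 to 0.26 and Nr1h3 -0.13 to 0.050. In endothelial cells the ranges were Soat1 -0.13 to 0.10, Plin2 -0.072 to 0.11 and Ch25h -0.071 to 0.30. For the difference between infiltrating macrophages and microglia they were Apoe -0.23 to 0.072, Abca1 -0.11 to 0.064, Lrp1 -0.050 to 0.065, Soat1 -0.058 to 0.067, Plin2 -0.043 to 0.14 and Nr1h3 -0.33 to 0.0075.

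Counts of all genes called moved more. DESeq2 called 821 genes over all kept droplets, 2 in microglia, 14 in border-associated macrophages, 174 in fibroblasts, 2 in astrocytes and 12 in endothelial cells, where edgeR called 3, 0, 3, 1, 0 and 0. Over all kept droplets edgeR called 5 genes without the filter, 1 without TMM and 0 with batch as a covariate, in batch 1 alone or with the replicate block. In microglia it called 1 with doublets kept and 1 with the earlier dispersion method. In border-associated macrophages it called 7 without the filter, 1 with batch as a covariate, 5 with the replicate block, and 0 without TMM, with doublets kept, in batch 1 alone, with the earlier dispersion method and at Leiden resolution 1. In astrocytes batch 1 alone gave 1. Leaving out each mouse gave 0 to 3 genes over all kept droplets, 0 to 2 in infiltrating macrophages, 0 to 8 in border-associated macrophages (8 without the third control mouse), 1 to 2 in fibroblasts, 0 to 1 in astrocytes and 0 to 4 for the difference between infiltrating macrophages and microglia. With the replicate block fibroblasts had 0 calls, members had 0 calls in each comparison, and the sign changed for Plin2 0.031 over all kept droplets and Abca1 -0.00170 in infiltrating macrophages. Deviations of mice with the same number correlated at -0.36 to 0.25, so the numbers were not taken as pairs. Depth limits Nr1h3 and Ch25h most, with levels of a few CPM outside their main classes.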
